A study of Mus musculus with 7 samples.

Results

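The data described here are the levels of 9 named long noncoding RNAs, Malat1, Neat1, Pvt1, Gas5, Snhg1, Snhg5, Snhg12, Dleu2 and Kcnq1ot1, in macrophages sorted from mouse gliomas. They were taken by gene symbol from the 55385 gene IDs of the deposited count files. All 9 were found, and all 9 were among the 15448 genes that passed the filter on low counts. The group was chosen by name around Pvt1, and Pvt1 was selected on its CPM (read count scaled by library total), which was lower in every library of the Chi3l1 knockdown tumours than in every control library, so its contrast is given as a description, without a test.

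Messenger RNA was profiled by sequencing in tumour-associated macrophages of C57BL/6 mice with intracranial tumours of QPP7, a mouse glioma line. The injected tumour cells, 100000 per mouse, expressed either shChi3l1, a short hairpin RNA that knocks down Chi3l1 (3 libraries), or the control vector shSC (4 libraries). Chi3l1 encodes a secreted chitin-binding glycoprotein, and the comparison asks how the macrophages of tumours with less of it differ. Only the injected cells carried a hairpin, all tumours came from the same line, and the gate's antibodies are not named in the labels.

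The libraries held 23174989 to 36502664 assigned reads in shChi3l1 and 19169129 to 32590781 in shSC. Nothing in the labels states that the libraries are from different mice, and a p-value therefore covers the spread among the libraries, which may be in part technical. Chi3l1 itself was scarce in the sorted cells, at 0.285 to 1.19 CPM in shChi3l1 and 0.774 to 0.819 CPM in shSC libraries, a level that cannot check a hairpin acting in other cells. All 12 macrophage markers had a log2 fold change above 0 (median 0.33), 10 of them without shSC 4, and their summed level was 35997 to 55594 CPM in shChi3l1 and 27524 to 37838 CPM in shSC libraries. Markers of other cells were present too and varied between libraries: 12 T-cell and NK-cell markers summed to 133 to 634 CPM in shChi3l1 and 118 to 914 CPM in shSC, and 15 tumour and glial markers to 98.3 to 137 CPM in shChi3l1 and 49.7 to 341 CPM in shSC. Microglia markers were the most one-sided of the cell-type lists: all 10 had a log2 fold change above 0 (median 1.503), 5 had an edgeR unadjusted p under 0.05, and 1 had groups without overlap. Over all tested genes 57.6% were above 0, 0.906% had such a p in that direction and 1.24% lay wholly higher in shChi3l1. They summed to 1296, 2404 and 4746 CPM in shChi3l1 libraries and 1798, 1477, 1302 and 1076 CPM in shSC libraries, and their median was 0.48, with 9 above 0, without shChi3l1 3 and shSC 4. All 8 tested B-cell markers were above 0 (median 0.56), with sums of 154 to 1831 CPM in shChi3l1 and 81.2 to 514 CPM in shSC, but 9 of 9 tested were below 0 without shChi3l1 3 and shSC 4. Of 25 genes of the immediate-early and heat-shock response to stress and handling, 22 were above 0 (median 0.48) and 4 had an unadjusted p under 0.05, with summed levels of 15155 to 19850 CPM in shChi3l1 and 10959 to 14979 CPM in shSC, which did not overlap. Of the other cell-type lists, 5 of 10 dendritic-cell, 7 of 10 endothelial, 2 of 5 neutrophil and 3 of 5 fibroblast and pericyte markers tested were above 0. So were 5 of 12 T-cell and NK-cell markers. Of 13 tested tumour and glial markers 4 were above 0 (median -1.04), but 8 were above 0 without shSC 4 (median 0.15). The part of these cell types and of handling in the levels of the 9 RNAs was not tested. None of the 12 macrophage, 12 T-cell and NK-cell or 15 tumour and glial markers was at 0 in every library.

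Long noncoding RNAs act as transcripts and are not translated into known proteins. Malat1 lies in nuclear speckles, where splicing factors gather, and Neat1 is the scaffold of paraspeckles. Kcnq1ot1 silences neighbouring imprinted genes from the paternal chromosome. Gas5, Snhg1, Snhg5 and Snhg12 are host genes: small nucleolar RNAs (snoRNAs), which guide chemical changes of ribosomal RNA, are cut from their introns, and the spliced remainder of Gas5 is a known substrate of nonsense-mediated decay. Dleu2 is the host of the microRNAs miR-15a and miR-16-1, which slow the cell cycle, and Pvt1 lies next to the growth gene Myc and is gained together with it in many human tumours.

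RefSeq promoter windows (GRCm38.p6, 250 bases before to 50 bases after a transcript start) were found for 7 of the 9 genes, that is for all but Neat1 and Pvt1. The snoRNA hosts are shown because transcripts of Gas5 and of other hosts are known to begin with a terminal oligopyrimidine (TOP) tract, the growth-regulated start of ribosomal protein messages. Each line gives 30 bases before and 30 bases from the transcript start, 5′ to 3′ on the gene's strand, with the longest run of at least 5 pyrimidines (C or T) within 20 bases of the start in capitals.
Gas5 first start, chr1:161034571-161034630, plus strand: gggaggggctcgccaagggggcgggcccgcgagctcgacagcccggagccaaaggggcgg
Gas5 second start, chr1:161035136-161035195, plus strand: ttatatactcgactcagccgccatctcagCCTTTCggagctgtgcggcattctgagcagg
Snhg1, chr19:8723457-8723516, plus strand: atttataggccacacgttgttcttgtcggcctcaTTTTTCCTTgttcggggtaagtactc
Snhg5, chr9:88522868-88522927, minus strand: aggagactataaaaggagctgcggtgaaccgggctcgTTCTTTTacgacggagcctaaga
Snhg12, chr4:132308648-132308707, plus strand: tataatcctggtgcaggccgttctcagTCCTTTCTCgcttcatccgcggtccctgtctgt

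Of these 5 windows, 4 held such a run, against 57.5% of all 32851 promoter windows, so a run of this length is common. A stricter form, a C at the annotated start that opens a run of at least 5 pyrimidines, was met by the second start of Gas5 and by 2.51% of all windows. Among 21 windows of genes of the translation machinery with known TOP tracts, 2 met it, so the annotated starts place few of the known tracts exactly. Dleu2 is shown for another motif, the MYC binding site CACGTG, because MYC is known to repress Dleu2 in B-cell lymphoma lines and the Myc gene lies next to Pvt1. CACGTG, which reads the same on both strands, was absent from the other member windows and was present in 7.15% of all windows. In Dleu2 it began 178 bases before the start and is in capitals below. The mature microRNAs cut from Dleu2 are given with their seed (bases 2 to 8) in capitals.
Dleu2, chr14:61682526-61682571, minus strand: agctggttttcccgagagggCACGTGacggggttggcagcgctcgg
miR-15a-5p, chr14:61632075-61632096, minus strand: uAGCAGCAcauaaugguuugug
miR-16-5p, chr14:61631936-61631957, minus strand: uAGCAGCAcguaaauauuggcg

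Both microRNAs have the seed AGCAGCA, so they belong to the same family. The Dleu2 microRNA genes had 0, 1 and 0 reads in shChi3l1 libraries and 1, 0, 2 and 1 reads in shSC libraries. Annotated snoRNA genes inside the hosts, 10 in Gas5, 8 in Snhg1, 5 in Snhg12 and 2 in Snhg5, had 0 reads in every library. Their bases lie within exons of the hosts as annotated, where a read belongs to both genes, and the libraries were made from messenger-like cDNA. The counts therefore describe the host transcripts and not their small RNAs.

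Per base of transcript, Malat1 and Gas5 lay far above the other 7 RNAs. Levels between genes are given as TPM, counts divided by exon length and scaled to a fixed total in each library. Malat1 (ENSMUSG00000092341.3, mm10 chromosome 19, 5795690 to 5802672, minus strand, 6983 exon bases) averaged 203 ± 124 TPM over all libraries (SD, n = 7) and ranked 8 among 929 tested genes annotated as long noncoding. That set goes by annotated gene type only and includes genes named for proteins, such as Ifi30 (rank 3) and Cct6a (rank 11). Gas5 (ENSMUSG00000053332.13, chromosome 1, 161034422 to 161038539, plus strand, 3760 exon bases) averaged 84.4 ± 23.9 TPM (SD, n = 7) and ranked 12. These ranks placed Malat1 above 95.7% and Gas5 above 91.2% of all tested genes.

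Another 6 of the 9 RNAs lay close together near the middle of the tested genes, between 45.1% and 53.1% of the ordered list. Snhg1 averaged 4.83 ± 2.00 TPM, Snhg5 4.23 ± 2.06, Pvt1 4.19 ± 4.26, Dleu2 3.84 ± 1.20, Neat1 3.41 ± 2.45 and Snhg12 3.20 ± 0.864 TPM (SD, n = 7 each). Their means differed by less than the spread of Pvt1 over libraries, but that spread does not measure differences between RNAs within libraries. Their order was not tested. Kcnq1ot1 (ENSMUSG00000101609.2, chromosome 7, 143203458 to 143296549, minus strand) was lowest at 0.140 ± 0.105 TPM, above 2.02% of tested genes. Its annotated exon of 93092 bases spreads 26 to 262 reads very thinly.

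The RNAs also differed in how much they varied. Kcnq1ot1 ranged 12.2-fold over the 7 libraries, Pvt1 7.67-fold, Neat1 7.42-fold and Malat1 5.14-fold, whereas the snoRNA hosts and Dleu2 ranged 2.17-fold to 2.94-fold. As the SD of log2 CPM, Neat1 varied more than 93.9%, Kcnq1ot1 more than 92.9%, Malat1 more than 87.5% and Pvt1 more than 85.6% of tested genes of similar CPM (within 0.5 on the log2 scale). The other 5 RNAs varied more than 29.2% to 49.5% of such genes. The spread of each RNA is seen in the plot of levels by library.

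**Figure D1:**
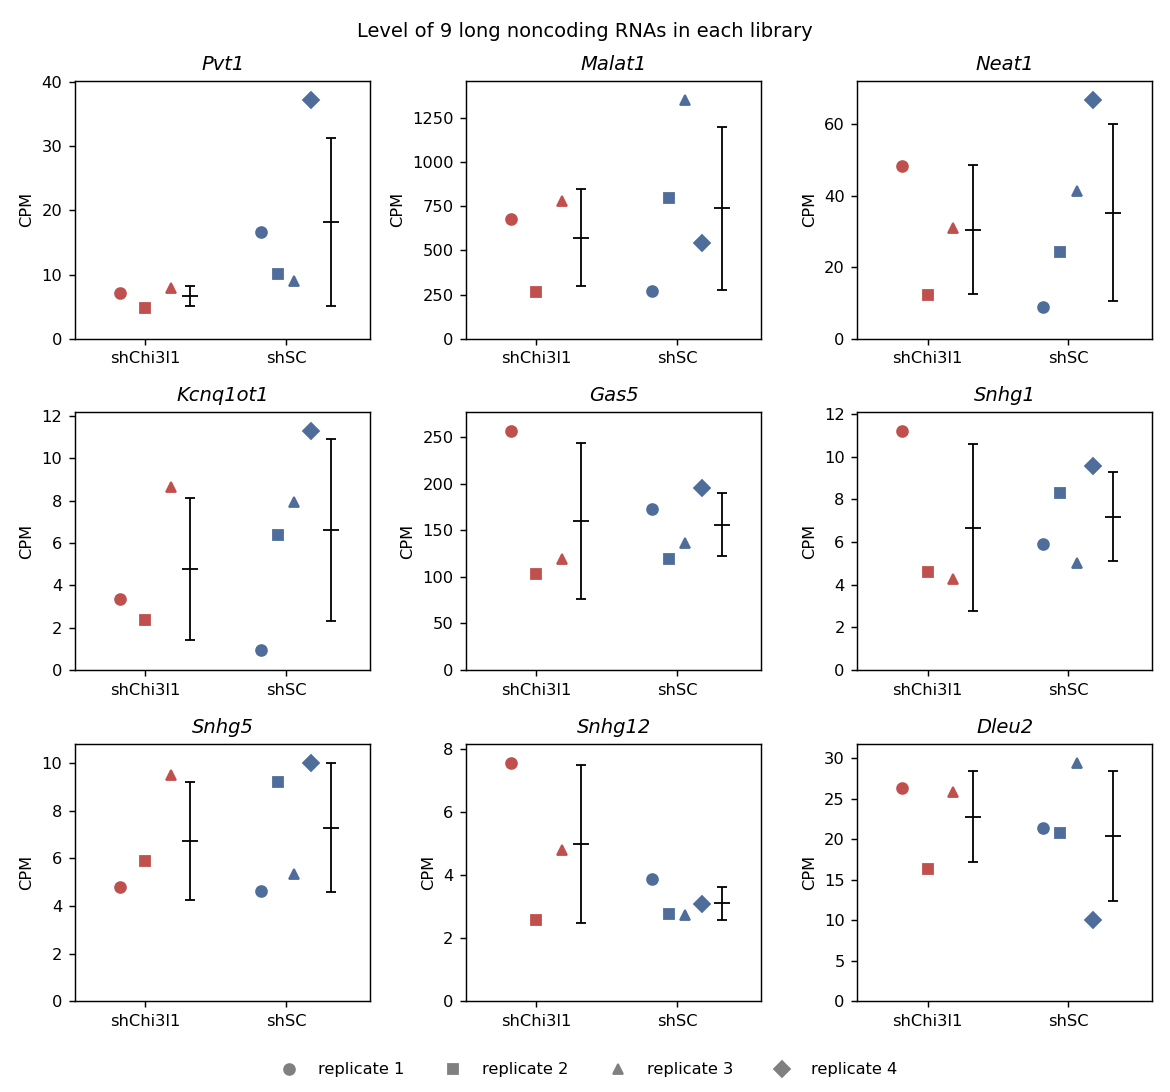
Level in CPM (linear axes from 0) of the 9 RNAs in each library, shChi3l1 left (3 libraries) and shSC right (4 libraries), with the replicate number as marker shape and bars for mean ± SD. The shChi3l1 and shSC points do not overlap for Pvt1 and overlap for the other 8 RNAs.

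Pvt1 (ENSMUSG00000097039.8, mm10 chromosome 15, 62037986 to 62378096, plus strand, 6996 exon bases) was low in all shChi3l1 libraries. It had 7.07, 4.84 and 7.89 CPM in shChi3l1 replicates 1 to 3, against 16.7, 10.0, 9.01 and 37.2 CPM in shSC replicates 1 to 4. The groups did not overlap, but the margin was narrow: the highest shChi3l1 value, 7.89 CPM from 194 reads, lay just under the lowest shSC value, 9.01 CPM from 264 reads. Pvt1 averaged 6.60 ± 1.57 CPM over the 3 shChi3l1 libraries, against 18.2 ± 13.1 CPM over the 4 shSC libraries (SD).

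The log2 fold change of Pvt1 was -1.46 with a standard error (SE) of 0.55, which measures the contrast that chose it. Replicate shSC 4 carried much of its size, since without that library the log2 fold change was -0.85 (SE 0.43). Same-numbered libraries, which the labels call pairs for one figure of the study, differed by -1.24, -1.05 and -0.19 log2 units in pairs 1, 2 and 3. In the fit with the replicate number as a block, over the 6 paired libraries, Pvt1 was at -0.83 (SE 0.33). In whole-population libraries such as these, fewer cells that express an RNA and less of it per cell cannot be told apart.

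Pvt1's position among other genes was as follows. Of the 9 RNAs, 1 had groups without overlap, in the lower direction. Over all tested genes 1.25% (193 genes) had groups without overlap in that direction, and 1.24% in the other. Among the 929 tested genes annotated as long noncoding, 12 (1.29%) lay wholly lower and 13 (1.4%) wholly higher in shChi3l1, and Pvt1 had the highest CPM of these 25. Of another list of 26 named long noncoding RNAs, 19 were tested, and Cerox1, which is known to raise the activity of mitochondrial complex I, was the 1 with groups without overlap. Cerox1 had 1.23, 0.980 and 0.447 CPM in shChi3l1 libraries and 2.69, 2.09, 2.42 and 13.1 CPM in shSC libraries. Its log2 fold change was -2.51 (SE 0.82, edgeR adjusted p = 0.9998), and -1.43 (SE 0.58) without shSC 4.

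Myc, a transcription factor that drives growth and division, was the only gene within 100 kb of Pvt1 that passed the count filter, 47612 bases upstream on the same strand. It had 9.83, 31.7 and 28.6 CPM in shChi3l1 libraries and 22.3, 49.6, 33.1 and 149 CPM in shSC libraries. These groups overlapped, with shChi3l1 2 and 3 above shSC 1. The log2 fold change of Myc was -1.44 (SE 0.70, edgeR unadjusted p = 0.0696, adjusted p = 0.9998), and -0.58 (SE 0.52) without shSC 4. With the replicate block it was -0.68 (SE 0.27), at an unadjusted p of 0.0482 in edgeR. In edgeR the unadjusted p was also under 0.05 without shSC 1 (0.0333), without shSC 3 (0.0469) and with no low-count filter (0.0313). It was 0.0271 in DESeq2's Wald test. In the rest of the 17 alternatives it was above 0.05, among them 0.298 without shSC 4 and 0.158 without shChi3l1 1 in edgeR. The lowest adjusted p of any alternative was 0.75. Within same-numbered pairs Myc was lower in shChi3l1 in all 3, by -1.18, -0.64 and -0.21 log2 units.

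Pvt1 and Myc were both highest in shSC 4, but their ratio was not fixed. Per Pvt1 read there were 1.39, 6.55 and 3.62 Myc reads in shChi3l1 libraries and 1.34, 4.93, 3.67 and 4.01 in shSC libraries. Replicate 1 of both groups thus held the fewest Myc reads per Pvt1 read. When each gene's log2 CPM was centred on its mean over 7 libraries, the root mean square difference from Pvt1 was 0.82 for Myc, rank 509 of 8532 genes compared. The 5 nearest genes were Ckb (0.378), a creatine kinase, Ube2c (0.389) and Cdca7 (0.390), both cell-cycle genes, Rad51ap1 (0.424), of DNA repair, and Adk (0.427), adenosine kinase. These were picked for likeness and 8532 genes were searched, so their nearness is a description.

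Levels of other genes are given here beside those of Pvt1. The summed CPM of 25 proliferation genes was 758, 681 and 636 in shChi3l1 libraries and 1181, 882, 775 and 1141 in shSC libraries, which did not overlap either. All 25 had a log2 fold change below 0, with a median of -0.69, beside 42.4% of all tested genes below 0 and a median of 0.07. Of the 25, 5 had an edgeR unadjusted p under 0.05 and 3 lay wholly lower, beside 0.576% and 1.25% of all tested genes in that direction. Without shSC 4, 21 of the 25 were below 0, with a median of -0.44. The tumour and glial markers summed to 341 CPM in shSC 4 and to 49.7 to 137 CPM in the other 6 libraries, so that shSC 1, the second highest in Pvt1, was the lowest in them. The Y-linked Ddx3y had 1.02, 0.535 and 0 CPM in shChi3l1 libraries and 0.709, 0.395, 0.307 and 4.56 CPM in shSC libraries. The part of these markers in the level of Pvt1 was not tested.

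**Figure D2:**
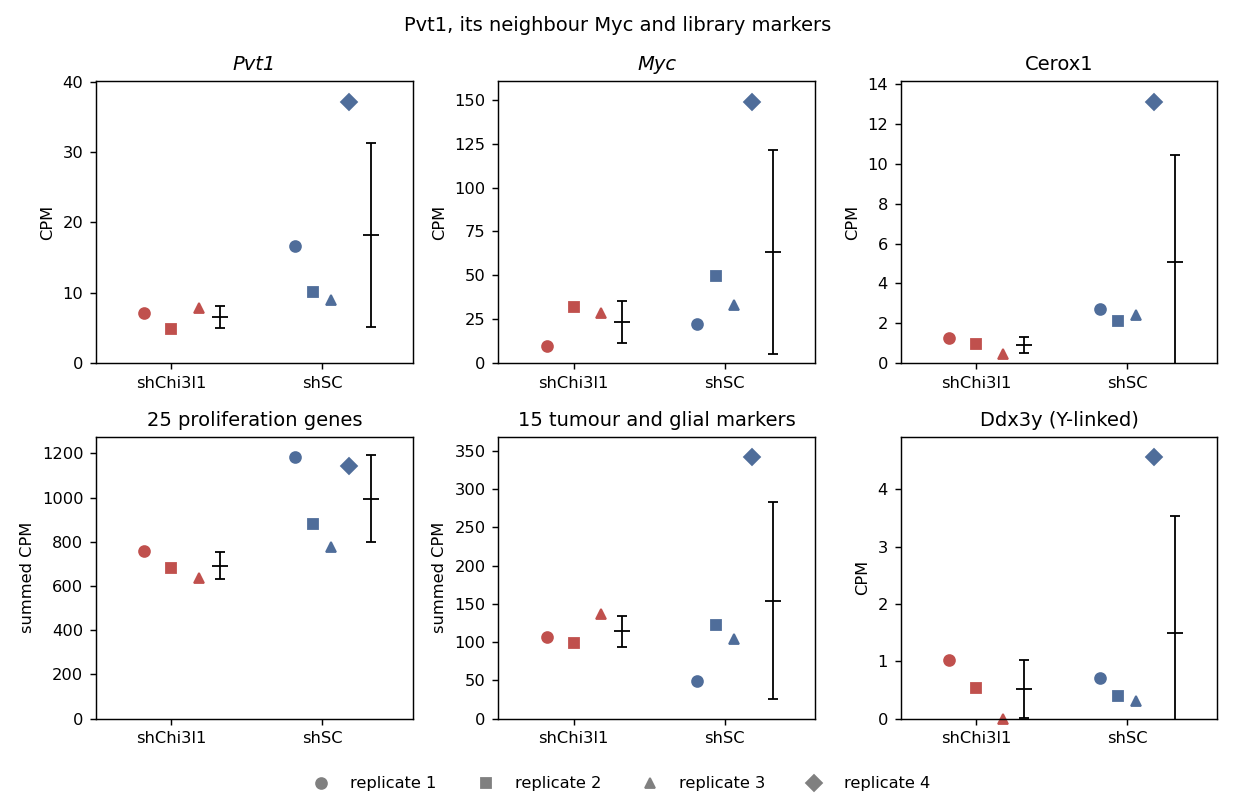
Levels of Pvt1, its neighbour Myc, Cerox1 and Ddx3y (CPM) and summed levels of 25 proliferation genes and of 15 tumour and glial markers (summed CPM) in each library, shChi3l1 left (3 libraries) and shSC right (4 libraries), with bars for mean ± SD cut at 0. Replicate shSC 4 is the highest library for Pvt1 (37.2 CPM), Myc (149 CPM), Cerox1 (13.1 CPM), the tumour and glial markers (341 CPM) and Ddx3y (4.56 CPM), and the second highest for the proliferation genes.

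MYC target genes were counted as a list because Myc lies next to Pvt1. Of 25 tested targets 21 had a log2 fold change below 0, with a median of -0.25, beside 42.4% of all tested genes and a median of 0.07. In the edgeR test 0 passed, adjusted or unadjusted, beside 0.0% and 1.48% of all tested genes. So few calls are near those shares and are no result about the list. Without shSC 4, 18 of 24 were below 0, with a median of -0.13. Srm, spermidine synthase, had the smallest unadjusted p of the list, averaging 50.8 ± 8.08 CPM over the 3 shChi3l1 libraries and 76.4 ± 17.3 CPM over the 4 shSC libraries (SD), with a log2 fold change of -0.59 (SE 0.32, edgeR adjusted p = 0.9998). Of 11 tested members of the MYC network, 5 were above 0 and 6 below 0 (median -0.03), but 8 above and 3 below without shSC 4 (median 0.18).

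The nuclear RNAs Malat1, Neat1 and Kcnq1ot1 did not separate the groups. Malat1 had 678, 263 and 778 CPM in shChi3l1 libraries and 268, 800.0, 1352 and 539.8 CPM in shSC libraries. Each group held 1 low library, and the highest value was in shSC 3. Malat1's log2 fold change was -0.37 (SE 0.59, edgeR adjusted p = 0.9998), and 0.05 without shSC 3.

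Neat1 (ENSMUSG00000092274.3, chromosome 19, 5824708 to 5845478, minus strand) lies 22036 bases from Malat1. It had 48.3, 12.3 and 31.1 CPM in shChi3l1 libraries and 9.01, 24.3, 41.2 and 66.8 CPM in shSC libraries. The lowest and the highest value were both in shSC, so the shChi3l1 libraries lay inside the shSC range. Its log2 fold change was -0.21 (SE 0.66, edgeR adjusted p = 0.9998), and 0.30 without shSC 4. Malat1 had 14.0, 21.4 and 25.1 reads per Neat1 read in shChi3l1 libraries and 29.8, 33.0, 32.8 and 8.08 in shSC libraries, so shSC 4, where Neat1 was highest, had the lowest ratio.

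Kcnq1ot1 had 3.36, 2.38 and 8.62 CPM in shChi3l1 libraries and 0.922, 6.35, 7.92 and 11.3 CPM in shSC libraries. As for Neat1, the shChi3l1 values lay inside the shSC range, whose lower end rests on 26 reads. The log2 fold change was -0.47 (SE 0.76, edgeR adjusted p = 0.9998), -0.08 without shSC 4 and 0.15 in the fit with the replicate block. The gene runs antisense to Kcnq1, whose potassium channel message had 0 reads in each shChi3l1 library and 0, 8, 33 and 7 in shSC libraries, and the libraries do not mark strand. No gene within 100 kb of Kcnq1ot1 passed the count filter.

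The 3 nuclear RNAs were low in the same 2 libraries, 1 of each hairpin. Replicates shChi3l1 2 and shSC 1 held the 2 lowest values of Malat1, of Neat1 and of Kcnq1ot1. Their log2 deviations from the mean over 7 libraries were -1.14 in shChi3l1 2 and -1.11 in shSC 1 for Malat1, -1.15 and -1.60 for Neat1, and -0.91 and -2.26 for Kcnq1ot1. Xist, the nuclear RNA that coats the inactive X chromosome, was low there too, with deviations of -1.22 in shChi3l1 2 and -0.99 in shSC 1. The plot of deviations by library shows these columns, but they are not particular to the nuclear RNAs. In shChi3l1 2, 8 of the 9 RNAs, all but Snhg5, had their lowest or second lowest value, and in shSC 1 Snhg5 also had its lowest.

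Malat1's nearest genes by the same measure as for Pvt1 were Xist (0.286), Nktr (0.289), a cyclophilin-like protein, and Gstt1 (0.307), a glutathione transferase. Next were Nfat5 (0.348), a transcription factor of osmotic stress, and Gcsam (0.348). Neat1 ranked 335 of 8532 genes for Malat1, and Malat1 ranked 77 of 8532 for Neat1. Both are transcribed from the same stretch of chromosome 19. The share of reads in mitochondrial genes was 1.30%, 0.407% and 1.13% in shChi3l1 libraries and 0.666%, 1.79%, 1.75% and 1.06% in shSC libraries, so it was also lowest in shChi3l1 2 and shSC 1. The T-cell and NK-cell markers summed to 634, 133 and 547 CPM in shChi3l1 libraries and 378, 775, 914 and 118 CPM in shSC libraries, highest in shSC 3 as was Malat1. The part of these values in the levels of the nuclear RNAs was not tested.

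**Figure D3:**
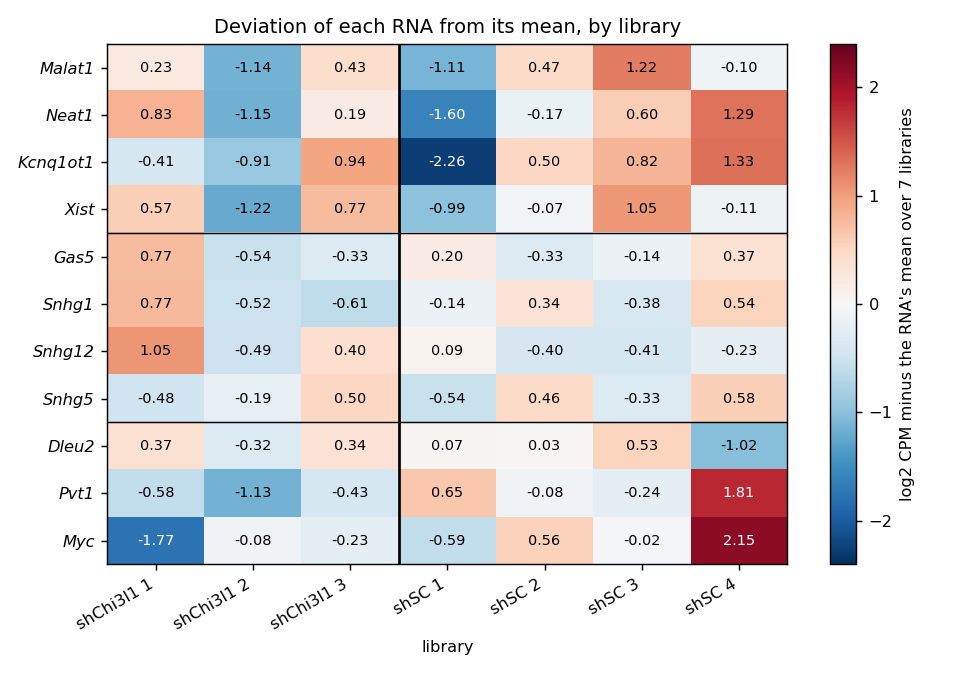
Log2 CPM of each RNA minus its mean over the 7 libraries (colour and printed value), with the 3 shChi3l1 libraries left of the line and the 4 shSC libraries right of it. Malat1, Neat1, Kcnq1ot1 and Xist are blue in shChi3l1 2 and shSC 1, Gas5, Snhg1 and Snhg12 are reddest in shChi3l1 1, and Pvt1 and Myc are reddest in shSC 4.

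The proteins of the bodies that hold these RNAs were measured as lists. Of 21 tested paraspeckle proteins, 13 had a log2 fold change below 0 (median -0.11), and 8 of 21 without shSC 4 (median 0.04). Pspc1, a paraspeckle core protein, averaged 7.43 ± 2.85 CPM over the 3 shChi3l1 libraries and 10.4 ± 4.11 CPM over the 4 shSC libraries (SD), a log2 fold change of -0.49 (SE 0.43). Of 25 tested nuclear speckle and splicing factors, 17 were below 0 (median -0.15), and 16 without shSC 4. Neither list had a member at an edgeR unadjusted p under 0.05, near the 1.48% of all tested genes that had one. Of all tested genes 42.4% were below 0.

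Of the genes around Kcnq1ot1 in its imprinted domain, 9 were tested and 8 had a log2 fold change above 0 (median 0.43). Beside them, 57.6% of all tested genes were above 0 (median 0.07). Without shSC 4 the count was 5 above 0 with a median of 0.13, and without shChi3l1 3 and shSC 4 the median was 0.02. Cd81, a tetraspanin of the cell surface, was the most abundant in CPM of these and averaged 962 ± 501 CPM over the 3 shChi3l1 libraries and 669 ± 128 CPM over the 4 shSC libraries (SD), with a log2 fold change of 0.52 (SE 0.41, edgeR adjusted p = 0.9998). Cdkn1c, the cell-cycle inhibitor that Kcnq1ot1 is known to silence in mouse, had 13, 31 and 41 reads in shChi3l1 libraries and 18, 31, 21 and 20 reads in shSC libraries.

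The snoRNA hosts differed more between single libraries than between hairpins. Gas5 had 255.9, 103 and 119.5 CPM in shChi3l1 libraries and 173, 119.4, 137 and 195 CPM in shSC libraries. Its highest and its lowest value were both in shChi3l1. Gas5's log2 fold change was 0.03 (SE 0.40, edgeR adjusted p = 0.9998), and -0.53 (SE 0.35) without shChi3l1 1.

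Snhg1 (ENSMUSG00000108414.1, chromosome 19, 8723475 to 8726443, plus strand) had 11.2, 4.58 and 4.27 CPM in shChi3l1 libraries and 5.92, 8.30, 5.02 and 9.55 CPM in shSC libraries. As for Gas5, shChi3l1 1 was the highest library, while shChi3l1 2 and 3 were below every shSC library. Its log2 fold change was -0.11 (SE 0.47, edgeR adjusted p = 0.9998), and -0.74 (SE 0.43) without shChi3l1 1. Gas5 and Snhg1 were the closest pair of the 9 RNAs across libraries, with a root mean square log2 difference of 0.326.

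Snhg12 (ENSMUSG00000086290.9, chromosome 4, 132308623 to 132311024, plus strand) had 7.58, 2.59 and 4.80 CPM in shChi3l1 libraries and 3.86, 2.77, 2.73 and 3.10 CPM in shSC libraries. The 2 highest libraries were shChi3l1 1 and 3, and shChi3l1 2 was the lowest of all 7. Its log2 fold change of 0.68 (SE 0.46, edgeR unadjusted p = 0.176, adjusted p = 0.9998) was the largest positive value of the 9. These levels rest on 72 to 178 reads per library, and the value was 0.20 without shChi3l1 1.

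Snhg5 (ENSMUSG00000097195.10, chromosome 9, 88495268 to 88523562, minus strand) had another order of libraries. It had 4.81, 5.88 and 9.51 CPM in shChi3l1 libraries and 4.61, 9.20, 5.32 and 10.0 CPM in shSC libraries. The groups covered nearly the same range, and shChi3l1 1, highest in the other 3 hosts, was the second lowest here. The log2 fold change was -0.11 (SE 0.44, edgeR adjusted p = 0.9998), and 0.08 without shSC 4.

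Replicate shChi3l1 1 stood out in other values as well. It held the highest share of reads in ribosomal protein genes, 6.19%, against 2.00% and 2.83% in the other shChi3l1 libraries and 2.43% to 5.74% in shSC libraries, and the lowest share in genes over 5000 exon bases, 12.6%, against 14.8% to 20.7% in the other 6 libraries. Zfas1, another snoRNA host and the most abundant in CPM of 10 further hosts tested, had 111, 30.8 and 39.0 CPM in shChi3l1 libraries and 41.6, 28.5, 39.6 and 50.8 CPM in shSC libraries, also highest in shChi3l1 1. The nearest genes to Gas5 across libraries were Casp12 (0.118), an inflammatory caspase, Eny2 (0.137), of the SAGA complex, 2610044O15Rik8 (0.141), Mzt1 (0.149), of the microtubule organizer, and Lsm6 (0.150), of the ring that binds U6 RNA. The part of transcript length and of ribosomal protein messages in the host levels was not tested.

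In the fit of all 7 libraries the partners of the hosts were close to even as lists, apart from the proteins of snoRNA-protein complexes and their assembly. Of the 10 further snoRNA hosts 5 had a log2 fold change above 0 and 5 below 0 (median -0.06), and 8 were above 0 without shSC 4 (median 0.23). Of 27 tested translation genes with TOP tracts 14 were above 0 and 13 below (median 0.00), and of 15 tested nonsense-mediated decay factors 7 were above and 8 below (median -0.04). Without shChi3l1 3 and shSC 4 those counts were 19 and 8 for the translation genes and 1 and 14 for the decay factors. The 15 proteins of snoRNA-protein complexes and their assembly were the most one-sided of these, with 12 below 0 (median -0.17). Without shSC 4, 11 were below 0. Of the 15, 2 lay wholly lower in shChi3l1, the assembly factors Ruvbl1 and Ruvbl2. Over all tested genes 42.4% were below 0 and 1.25% lay wholly lower. Ruvbl1, a helicase that assembles snoRNA-protein complexes, had 29.0, 37.1 and 27.6 CPM in shChi3l1 libraries and 62.4, 41.1, 47.1 and 53.1 CPM in shSC libraries, without overlap, and a log2 fold change of -0.71 (SE 0.30, edgeR unadjusted p = 0.0443, adjusted p = 0.9998). Its partner Ruvbl2 had 49.1, 42.4 and 41.6 CPM in shChi3l1 libraries and 71.0, 52.7, 64.0 and 63.8 CPM in shSC libraries, also without overlap, at -0.50 (SE 0.28).

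Dleu2 (ENSMUSG00000097589.9, chromosome 14, 61602839 to 61682373, minus strand, 11334 exon bases) had 26.3, 16.3 and 25.8 CPM in shChi3l1 libraries and 21.3, 20.8, 29.5 and 10.0 CPM in shSC libraries. The groups overlapped, and shSC 4, the library highest in Myc and Pvt1, was the lowest in Dleu2. Dleu2's log2 fold change was 0.16 (SE 0.41, edgeR adjusted p = 0.9998), and -0.07 without shSC 4. Of 11 tested targets of its microRNAs, 4 had a log2 fold change above 0 and 7 below 0 (median -0.16), beside 42.4% of all tested genes below 0. Without shSC 4 these counts were 5 and 6 (median -0.05), and without shChi3l1 3 and shSC 4 they were 2 and 9 (median -0.36). Ccne1, the cell-cycle gene for cyclin E, averaged 10.2 ± 4.21 CPM over the 3 shChi3l1 libraries and 14.6 ± 2.36 CPM over the 4 shSC libraries (SD), a log2 fold change of -0.52 (SE 0.38).

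Across the 9 RNAs, 6 had a log2 fold change below 0 and 3 above 0, with a median of -0.11. Of all tested genes 42.4% were below 0 and 57.6% above 0, with a median of 0.07. Of the 929 genes annotated as long noncoding 370 were below 0, with a median of 0.16. Without shSC 4, 4 of the 9 were below 0 and 5 above, with a median of 0.06. Of the 8 RNAs other than Pvt1, 0 passed edgeR's adjusted threshold of 0.05, as did 0.0% of all tested genes, and 0 had an unadjusted p under 0.05, against 1.48% (229) of all tested genes, 0.576% in the lower and 0.906% in the higher direction, or 435 genes with the replicate block. Over all genes, DESeq2's Wald test called 1 gene, which is not a member, and voom with quality weights called 0. Standard errors of the 8 lay between 0.40 and 0.76 log2 units, and a p that misses the threshold does not show that the 8 RNAs were equal between hairpins.

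**Figure D4:**
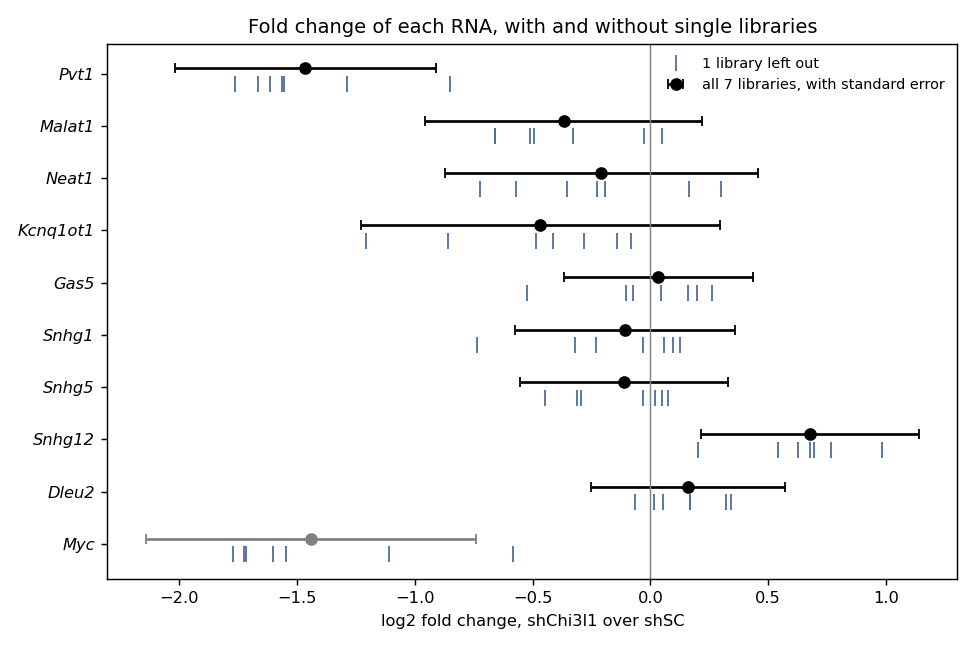
Log2 fold change (shChi3l1 over shSC) of the 9 RNAs and of Myc, as points with bars of 1 standard error from all 7 libraries, and as ticks with each single library left out. Every tick of Snhg12 lies between 0.20 and 0.98, whereas those of Malat1, Neat1, Gas5, Snhg1, Snhg5 and Dleu2 fall on both sides of 0. Ticks of Pvt1 lie between -1.77 and -0.85, and its choice for groups without overlap nearly fixed their side of 0.

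Genes that border the RNAs on the chromosome were counted as well. Around Malat1 and Neat1, 11 tested genes each lay within 100 kb, with medians of 0.13 and 0.06 on the log2 scale. Around Snhg1 there were 11 (median -0.04), around Snhg12 8 (0.14), around Dleu2 7 (0.35), around Gas5 5 (0.01) and around Snhg5 4 (0.04). None of these neighbours, nor Myc, had an unadjusted p under 0.05 in the edgeR fit of all 7 libraries. Over all tested genes 1.48% had such a p, so none among so few neighbours is near that share and is no result about them. The alternatives were computed only for Myc, Malat1 and Neat1 of these genes. Other genes cover part of the exon bases of each RNA, from 1.20% in Kcnq1ot1 to 20.9% in Snhg1, and reads there cannot be assigned to either gene.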

How the data were processed

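The deposited values are whole-number read counts, a table for every library that also lists exon positions and lengths, per the file headers. Trim Galore, HISAT2, featureCounts and the build mm10 are named in the submitters' processing notes. The sources used here give no versions, settings or annotation. Per the labels' protocols, 10 ng of RNA went into a SMART-Seq kit and 1 ng of the cDNA into Nextera XT, a kit that does not mark strand. PCR copies are not independent molecules, and low input adds noise between libraries.

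Gene types came from GENCODE mouse release 21, and symbols from a separate list of gene names. A few older symbols, that of Cerox1 among them, were replaced through RefSeq synonyms. Low counts were removed with filterByExpr at a minimum count of 10, and TMM-scaled counts were tested over all 7 libraries by the quasi-likelihood test of edgeR 4.0.16 in R 4.3.3, with hairpin as the only term and Benjamini-Hochberg adjustment over 15448 genes. CPM used TMM-scaled totals, 0.5 was added to counts before logarithms, and standard errors came from the F statistic. Any 2 libraries differed by a chi-square of 138.6 or more on average over genes (minimum 50 reads), so none repeats another. The labels' replicate numbers were not in the main fit. Deviations from group means correlated at 0.306, 0.26 and 0.188 within same-numbered pairs, above the limit of 0.1 for pairing. Differently numbered libraries reached 0.322 (shChi3l1 3 with shSC 2) and 0.2 (shChi3l1 2 with shSC 4), and the numbers are no clear guide to pairs. The replicate block was run as an alternative without shSC 4. Shares of reads in long, ribosomal and mitochondrial genes did not separate the hairpins (exact two-sided permutation test over 35 splits, p = 0.829, 0.829 and 0.429).

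The 9 RNAs and the 23 gene lists were chosen with earlier results of these data known. Named besides the 9 were tested genes within 100 kb, Myc, Xist, the 2 members of smallest p and the most abundant member of each list, and the 5 nearest genes to Pvt1, Malat1 and Gas5 among those with mean log2 CPM of at least 2. Chi3l1, Cdkn1c and Kcnq1 were added after their values were seen. A gene of a marker list is not reported.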

Additional observations from a re-analysis of the deposited data

Results flagged for a closer look

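In the 4 shSC libraries, a library was marked when its gap to the nearest other library, as a share of the group's range, exceeded Dixon's critical value. For independent normal values chance marks about 1 in 20 groups. CPM need not be normal and many named genes were picked on these data, so that rate is no yardstick here. Of 133 named genes 13 were marked, 5 of them highest in shSC 4. None of the 9 long noncoding RNAs, nor Myc, was among them. The 5 were Cerox1 at 13.1 CPM, Cspg4, a glial progenitor marker, at 15.3 CPM, Pspc1 at 16.5 CPM, and the Y-linked Ddx3y at 4.56 CPM and Eif2s3y at 3.05 CPM. Slc25a45, a neighbour of Malat1 and Neat1, was lowest in shSC 4 at 26.4 CPM. In shSC 1, Pcna (186 CPM), Tspan32 (134 CPM) and Rps15a-ps4 (7.30 CPM) were high and Hnrnpul2, a neighbour of Snhg1, was low at 1.77 CPM. Gmeb1, a neighbour of Snhg12, was high in shSC 2 at 3.42 CPM, where Mzt1 was low at 19.6 CPM, and Tek was high in shSC 3 at 1.16 CPM. Pvt1 had a log2 fold change of -0.85 without shSC 4, against -1.46 with all libraries.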

How the results depend on the processing

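Snhg12 stayed above 0 under all 17 alternatives, from 0.20 to 0.98. Pvt1 ranged from -1.77 to -0.83 under them. It was chosen for groups without overlap, so its sign was nearly fixed in advance and is no test. Leaving out 1 library gave log2 fold changes of -1.77 to -0.85 for Pvt1, -0.66 to 0.048 for Malat1, -0.72 to 0.30 for Neat1, -1.21 to -0.08 for Kcnq1ot1, -0.53 to 0.26 for Gas5, -0.74 to 0.12 for Snhg1, -0.45 to 0.076 for Snhg5, 0.20 to 0.98 for Snhg12 and -0.066 to 0.34 for Dleu2. Gas5 was at -0.014 with DESeq2 size factors and with DESeq2's Wald test, -0.075 with no low-count filter and -0.25 with voom and quality weights, which gave Snhg5 at 0.0056. The replicate block, on the pairing of 6 libraries, gave Neat1 0.26, Snhg5 0.082, Dleu2 -0.082 and Kcnq1ot1 0.15. Offsets for each library's trend with length gave Neat1 0.025 and Dleu2 -0.032, and with the block also Snhg5 0.055 and Dleu2 -0.35. Without shChi3l1 3 and shSC 4, chosen after seeing the data, Neat1 was at 0.28, Snhg1 at 0.29 and Dleu2 at -0.17. Genes at an unadjusted p under 0.05 numbered 229, and 927 with no filter, 435 with the block, 399 with offsets and block, 350 with DESeq2, 701 with voom, 145 without those 2 libraries and 143 to 908 without 1 library. Genes with groups apart, 384 in both directions, were 675 with no filter, 1473 without those 2 libraries and 635 to 3022 without 1. Genes called stayed at 0 except 1 with DESeq2's Wald test, Igkv4-58, an immunoglobulin segment named after its values were seen. The cause of these shifts was not tested. Under 30 reads (Kcnq1ot1 in shSC 1) counting error alone is large.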
